A study of Mus musculus with 4 samples.

Results

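Toll-like receptors, NOD-like receptors of the Nlrp branch and the related sensor Nod2 were examined in mouse mast cells through 10 genes, Tlr1, Tlr2, Tlr3, Tlr4, Tlr6, Tlr7, Tlr9, Nlrp3, Nlrp6 and Nod2. They were taken by gene symbol from the platform annotation, which gave 11 probe sets for the 10 genes, among 22180 genes with a single symbol and 33793 probe sets in all. The genes were picked with their values on these arrays already known, so their levels and differences are a description. RNA was measured on 4 Affymetrix whole-transcript arrays, 1 for each group, so no value has a replicate error and no p-value was computed. All cells came from BALB/c mice.

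The groups were as follows. Bone marrow-derived mast cells (BMMCs) are mast cells grown from marrow with interleukin-3 and stem cell factor, here each at 10 ng/ml for 3 to 4 weeks. One array held BMMCs kept for 6 days with TGF-β1 at 5 ng/ml, a cytokine that drives mast cells to a mucosal protease pattern. Another held BMMCs kept for 6 days on Chinese hamster ovary (CHO) cells that carry mouse Dll1, a ligand of Notch receptors, and then separated by c-Kit bead selection. The intestinal array held mucosal mast cells of naive mice, flow sorted as FcεRI+ c-Kit+ from small intestinal lamina propria. The control array held BMMCs kept for 6 days in normal medium. Coculture with hamster cells and bead selection cannot be told apart from Dll1, nor tissue source from digestion and sorting, and whether cells were pooled from several mice is not given in the sources used here.

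Toll-like receptors are membrane proteins that bind microbial molecules at the cell surface or in endosomes and signal through the adaptor Myd88, or for some members Ticam1 (TRIF), to NF-κB and interferon regulatory factors. Nlrp3 and Nlrp6 are cytosolic sensors that can assemble inflammasomes with the adaptor Pycard (ASC) and the protease Casp1, which matures interleukin-1β and interleukin-18. Nod2 senses muramyl dipeptide, a fragment of bacterial cell walls. Mast cells sit at epithelial surfaces and are known to respond to ligands of several of these receptors.

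Values are log2 probe set values and are compared between arrays within a gene. Each array got a background limit, the 95th percentile of 1438 olfactory, vomeronasal and taste receptor probe sets. It was 5.21 on the TGF-β1 array, 5.13 on the Dll1 array, 5.11 on the intestinal array and 5.12 on the control array. A gene was called higher or lower at 2-fold or more, provided that 1 or both of the 2 arrays exceeded their limit. Dimmer values were first set to the limit. Between 11251 and 12323 genes were above the limit per array. The 10 mast cell markers checked, among them Kit, Fcer1a, Ms4a2 and Cpa3, were above it on all 4 arrays. As a gauge of technical spread, the log2 differences of 2 probe sets of the same gene were compared. Their standard deviation (SD) per probe set was 0.24 for TGF-β1 minus control, 0.34 for Dll1 minus control and 0.48 for intestinal minus control. The gauge covers probe sets and not cultures or animals.

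Of the 10 genes, 7 were above the limit on each array, and they were not the same 7 on every array. Tlr2, Tlr6, Nlrp3, Nlrp6 and Nod2 were above it on all 4. Tlr1 and Tlr4 were above it on 3, Tlr9 on 2, and Tlr3 and Tlr7 on none. Against control BMMCs, 1 of the 10 was called with TGF-β1 (Nlrp6, higher), 1 with Dll1 (Nlrp6, higher) and 2 in intestinal cells (Tlr6 and Nlrp3, both lower). Over all genes tested, 1.4% were called in the first comparison, 3.42% in the second and 11.2% in the third. By direction, 0.508% were higher and 0.89% lower with TGF-β1, 1.64% higher and 1.78% lower with Dll1, and 4.47% higher and 6.74% lower in intestinal cells. The genes bright enough to be tested were 8 of the 10 with TGF-β1, 7 with Dll1 and 8 in intestinal cells. The 3 comparisons share the control array.

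**Figure D1:**
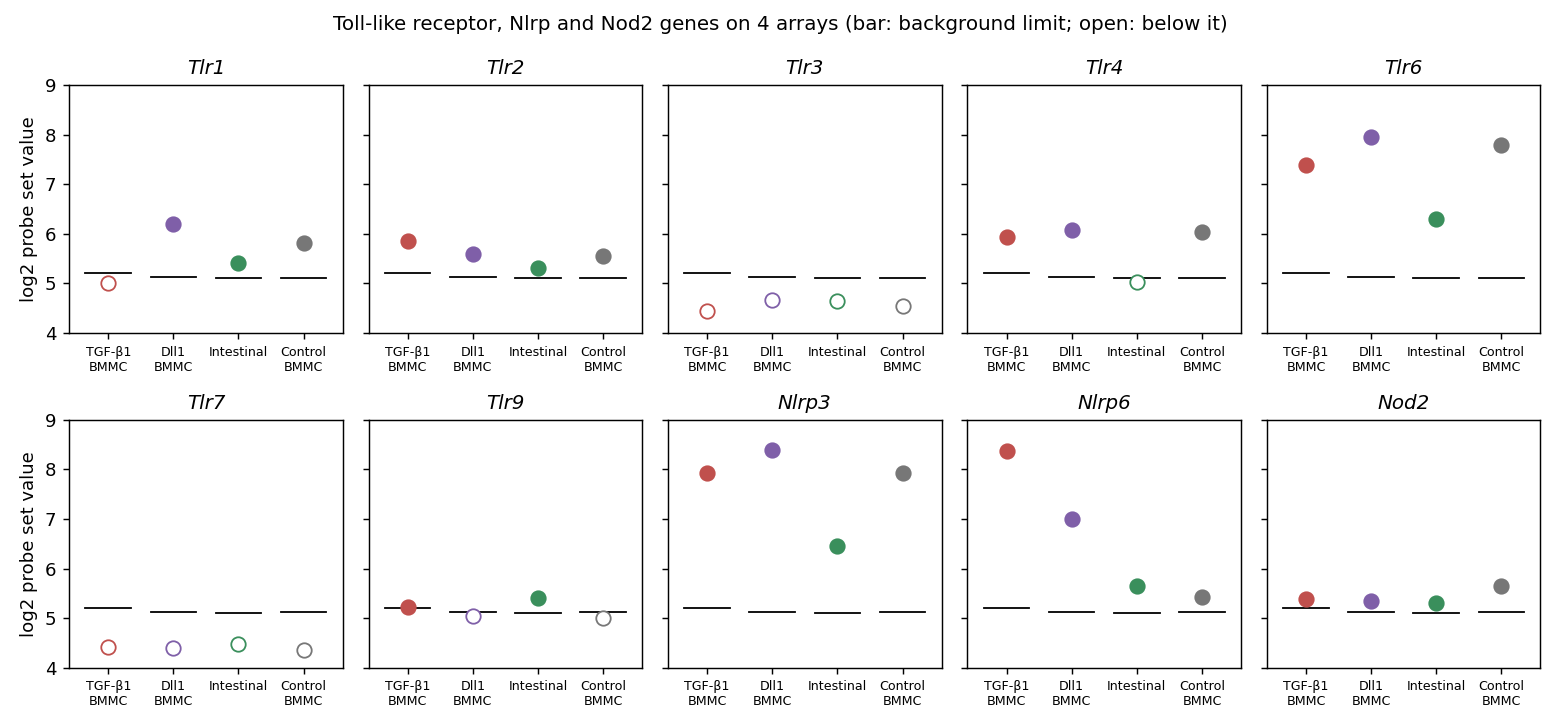
Log2 probe set value (vertical axis) of each gene on the TGF-β1, Dll1, intestinal and control arrays, 1 point per array, with a black bar at that array's background limit and open points below it. Nlrp6 stands at 8.36 on the TGF-β1 array and 5.43 on the control array, Nlrp3 and Tlr6 are lowest on the intestinal array, and Tlr3 and Tlr7 lie below the limit throughout.

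Nlrp6 is a sensor best known from the intestinal epithelium, where it takes part in mucus secretion and antimicrobial defence. Nlrp6 read 8.36 in TGF-β1-treated BMMCs, 6.99 with Dll1, 5.65 in intestinal mast cells and 5.43 in control BMMCs. It was thus well above the limit in both treated cultures and near it in the other preparations. It was 7.63-fold higher with TGF-β1 than in control BMMCs, a log2 difference of 2.93 that ranked 7th from the top among 12019 genes tested. With Dll1 it was 2.95-fold higher than in control BMMCs (1.56, 90th of 12756). In intestinal cells the difference from control BMMCs was 0.22, inside the SD of 0.48. The steps from the TGF-β1 to the Dll1 array (1.37) and from the Dll1 to the intestinal array (1.35) exceeded the SDs for those pairs (0.34 and 0.39). So the order of the arrays was TGF-β1, then Dll1, then intestinal and control cells, which did not differ beyond the gauge.

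Directly compared, Nlrp6 was 2.58-fold lower with Dll1 than with TGF-β1, 6.56-fold lower in intestinal cells than with TGF-β1, and 2.54-fold lower in intestinal cells than with Dll1. Of all genes tested, 4.09% were called for Dll1 against TGF-β1 (2.19% higher, 1.9% lower), 8.62% for intestinal cells against TGF-β1 (4.06% higher, 4.56% lower) and 7.7% for intestinal cells against Dll1 (3.56% higher, 4.14% lower). Nlrp6 on the intestinal array was thus below its level in either treated culture. The adjacent protein-coding genes on chromosome 7 in the RefSeq table of GRCm38.p6 did not follow Nlrp6. Cox8b, a subunit of cytochrome c oxidase, was below the limit on all 4 arrays (4.66, 4.77, 4.55 and 4.54 in the order TGF-β1, Dll1, intestinal, control). Pgghg, an enzyme that removes glucose from hydroxylysine-linked sugars, read 7.29, 7.05, 6.74 and 7.63 in that order, with no call against control.

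Because Nlrp6 was the gene with the widest range of the 10 (2.93), its promoter window is shown, from 250 bases before to 50 after the RefSeq start (GRCm38.p6, chr7:140920652-140920951, plus strand). Capitals mark an AP-1 match (TGANTCA) at position -140 from the start and a GATA match (GATA after A or T and before A or G) at position -73, both searched on both strands. Windows of this length held an AP-1 match in 7.81% and a GATA match in 29.8% of 32851 RefSeq promoters. Nlrp6's window held neither the SMAD palindrome GTCTAGAC (0.213% of promoters) nor the RBPJ letters GTGGGAA (6.38%), SMAD proteins and RBPJ being the DNA-binding factors of TGF-β and Notch signalling. A match is a description of these letters and not a binding site.
Nlrp6: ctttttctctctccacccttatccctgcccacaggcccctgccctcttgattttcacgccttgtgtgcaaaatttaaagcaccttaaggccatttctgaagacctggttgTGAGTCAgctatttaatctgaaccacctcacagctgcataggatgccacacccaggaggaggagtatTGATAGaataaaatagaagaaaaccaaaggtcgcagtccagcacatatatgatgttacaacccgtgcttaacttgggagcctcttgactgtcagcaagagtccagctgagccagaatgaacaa

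Other cell types known to express Nlrp6 were looked for through their markers. Of 25 intestinal epithelium markers, 5 were above the limit with TGF-β1, 9 with Dll1, 17 in intestinal cells and 7 in control BMMCs, and the list's median level was 4.84, 4.99, 5.71 and 4.69 in the same order. In intestinal cells 6 of the 25 were higher than in control BMMCs and 0 lower, with a median difference of 0.80. Of all genes tested, 4.47% were higher and 6.74% lower in that comparison. The 6 epithelial markers were Cdh1, the mucin Muc2 (3.52-fold), the fatty acid-binding protein Fabp1 (at least 3.06-fold), the trefoil peptide Tff3 (at least 2.79-fold), Lgals4 (2.37-fold) and Krt8 (2.01-fold). Cdh1 (E-cadherin, also made by mast cells) was the 1 epithelial marker called with TGF-β1, at 7.57 against 6.16 in control BMMCs, and it read 10.12 in intestinal cells. Epcam, Vil1 and Krt19 were among those below the limit on all 4 arrays. The part of epithelial RNA in the Nlrp6 values was not tested. On the Dll1 array 6 of 13 neutrophil markers (1 lower) and 3 of 6 eosinophil markers were higher than in control BMMCs, against 1.64% of all genes tested. Among them were S100a8 (8.85 against 4.58) and Prg2 (11.45 against 5.40). Also higher there were 3 of 11 T and innate lymphoid markers and 1 of 8 B and plasma cell markers. The part of such cells in the Nlrp6 value of 6.99 was not tested. On the TGF-β1 array 0 of the 13 neutrophil and 0 of the 6 eosinophil markers were higher, and 1 neutrophil marker was lower.

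Nlrp3 forms the best studied inflammasome and responds to potassium efflux and many danger signals. Nlrp3 read 7.92 with TGF-β1, 8.39 with Dll1, 6.46 in intestinal cells and 7.93 in control BMMCs. The intestinal array was the low one and the 3 culture arrays lay within 0.47 of one another. Nlrp3 was 2.77-fold lower in intestinal cells than in control BMMCs (log2 difference -1.47), 2.75-fold lower than with TGF-β1 and 3.81-fold lower than with Dll1. With TGF-β1 it differed from control BMMCs by -0.01. With Dll1 it was 0.46 higher than in control BMMCs, past the SD of 0.34 and short of 2-fold.

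Nlrp3 has 2 start sites in RefSeq (GRCm38.p6, plus strand), and both windows are shown because it was called lower in intestinal cells. The first, chr11:59541319-59541618, held 2 GATA matches, in capitals, at positions -8 and 27 from the start. The second, chr11:59542436-59542735, held the RBPJ letters, in capitals, at position -230.
Nlrp3 first start: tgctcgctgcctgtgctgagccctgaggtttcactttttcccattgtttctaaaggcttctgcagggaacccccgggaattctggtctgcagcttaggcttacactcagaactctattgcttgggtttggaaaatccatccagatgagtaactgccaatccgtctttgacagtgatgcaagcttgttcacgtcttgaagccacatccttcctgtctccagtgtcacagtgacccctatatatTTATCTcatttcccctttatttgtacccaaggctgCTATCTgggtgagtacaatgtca
Nlrp3 second start: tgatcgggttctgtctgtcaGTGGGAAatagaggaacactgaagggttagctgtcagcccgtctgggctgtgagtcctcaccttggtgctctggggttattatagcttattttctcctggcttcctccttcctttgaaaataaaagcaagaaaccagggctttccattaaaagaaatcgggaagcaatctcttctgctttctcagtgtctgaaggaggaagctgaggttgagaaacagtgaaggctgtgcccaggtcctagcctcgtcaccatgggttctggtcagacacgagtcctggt

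Tlr6 pairs with Tlr2 to bind diacylated lipopeptides of bacteria and mycoplasma. Tlr6 read 7.39 with TGF-β1, 7.96 with Dll1, 6.30 in intestinal cells and 7.80 in control BMMCs. As with Nlrp3, the intestinal array was the low one. Tlr6 was 2.82-fold lower in intestinal cells than in control BMMCs (-1.5), 2.13-fold lower than with TGF-β1 and 3.15-fold lower than with Dll1. Of all genes tested, 4.56% were lower than with TGF-β1 and 4.14% were lower than with Dll1, so 3 of the 10 genes (Tlr6, Nlrp3 and Nlrp6) were called lower in each of these comparisons. With TGF-β1 Tlr6 was 0.41 lower than in control BMMCs, past the SD of 0.24 and short of 2-fold, and with Dll1 it was 0.16 higher, within the SD.

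Tlr6 also has 2 RefSeq starts (GRCm38.p6, minus strand), shown because it was called lower in the same comparison as Nlrp3. Both windows held the letters AGGAAGT or their complement, the core of sites bound by PU.1, a factor of myeloid cells, which 9.35% of promoters held. In chr5:64959999-64960298 the match, in capitals, is at position 15. In chr5:64959117-64959416 it is at position -62. None of the 3 Nlrp3 and Nlrp6 windows held it. Of the 11 windows of these sensor genes, 4 held it, and the others with it were of Tlr1 and Tlr9. Neither Tlr1 nor Tlr9 was called against control.
Tlr6 first start: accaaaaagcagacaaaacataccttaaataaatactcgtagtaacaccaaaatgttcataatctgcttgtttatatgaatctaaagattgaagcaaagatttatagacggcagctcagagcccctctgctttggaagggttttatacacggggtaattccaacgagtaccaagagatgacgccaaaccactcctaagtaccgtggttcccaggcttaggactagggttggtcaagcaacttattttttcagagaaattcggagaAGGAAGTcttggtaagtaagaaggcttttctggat
Tlr6 second start: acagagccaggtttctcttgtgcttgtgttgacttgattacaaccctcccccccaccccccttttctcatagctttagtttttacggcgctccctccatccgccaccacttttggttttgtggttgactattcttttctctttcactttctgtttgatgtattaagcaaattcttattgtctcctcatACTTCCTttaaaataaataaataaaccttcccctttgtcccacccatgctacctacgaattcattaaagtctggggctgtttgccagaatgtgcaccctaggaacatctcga

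The other surface receptors for bacterial lipids were not called against control. Tlr1, the alternative partner of Tlr2 for triacylated lipopeptides and the neighbour of Tlr6 on chromosome 5, read 5.02 with TGF-β1 (below the limit), 6.20 with Dll1, 5.40 in intestinal cells and 5.81 in control BMMCs. Its highest and lowest arrays were thus the 2 treated cultures. Dll1 over TGF-β1 was at least 1.99-fold, just short of a call, and the measured difference was 1.19. The measured difference between TGF-β1 and control was -0.79, or at least 1.51-fold lower. Tlr1 and Tlr6 are close paralogs, and cross-hybridisation between them would blur both values.

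Tlr2, which recognises lipopeptides together with Tlr1 or Tlr6, read 5.86 with TGF-β1, 5.59 with Dll1, 5.30 in intestinal cells and 5.55 in control BMMCs. Ordered by level, no neighbouring arrays differed beyond the SD for their pair. Across wider gaps, TGF-β1 minus control was 0.31 (SD 0.24) and intestinal minus TGF-β1 was -0.56 (SD 0.43). Both were past the SD and short of 2-fold. The TGF-β1 array was the highest of the 4 for Tlr2 and the lowest for Tlr1.

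Tlr4, the receptor for lipopolysaccharide, read 5.93 with TGF-β1, 6.08 with Dll1, 5.04 in intestinal cells (below the limit) and 6.04 in control BMMCs. The cultures lay within 0.15 of one another, and the intestinal array was the low one. Tlr4 was at least 1.91-fold lower in intestinal cells than in control BMMCs, short of a call, with a measured difference of -1.0. Its obligate partner Ly96 (MD-2) read 5.25, 5.31, 4.94 and 5.47 in the order TGF-β1, Dll1, intestinal, control, and was likewise below the limit on the intestinal array. Cd14, the co-receptor that hands lipopolysaccharide to Tlr4, went the other way, at 5.25, 5.12, 6.03 and 4.97, and was at least 1.88-fold higher in intestinal cells than in control BMMCs.

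The endosomal receptors were at or under background. Tlr3, which binds double-stranded RNA, read 4.45 with TGF-β1, 4.66 with Dll1, 4.64 in intestinal cells and 4.54 in control BMMCs. Tlr7, which binds single-stranded RNA, read 4.42, 4.40, 4.48 and 4.35 in the same order. Neither gave a measurable difference. Tlr9, which binds unmethylated CpG DNA, read 5.22, 5.05, 5.40 and 5.00, above the limit in intestinal cells and marginally with TGF-β1, and no neighbours in its order differed beyond the SD. Unc93b1, the chaperone that carries endosomal receptors out of the endoplasmic reticulum, was above the limit on every array (6.08, 6.85, 6.55 and 5.85), so it did not share their background levels.

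Nod2 read 5.39 with TGF-β1, 5.34 with Dll1, 5.31 in intestinal cells and 5.66 in control BMMCs on its brighter probe set. Control BMMCs were highest, by 0.27 over TGF-β1 with an SD of 0.24 for that pair, and the others did not differ beyond the SD. Its second probe set read 5.02, 5.22, 5.15 and 5.22 in the same order and gave no call either. Nod2 was the 1 gene of the 10 with more than 1 probe set.

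**Figure D2:**
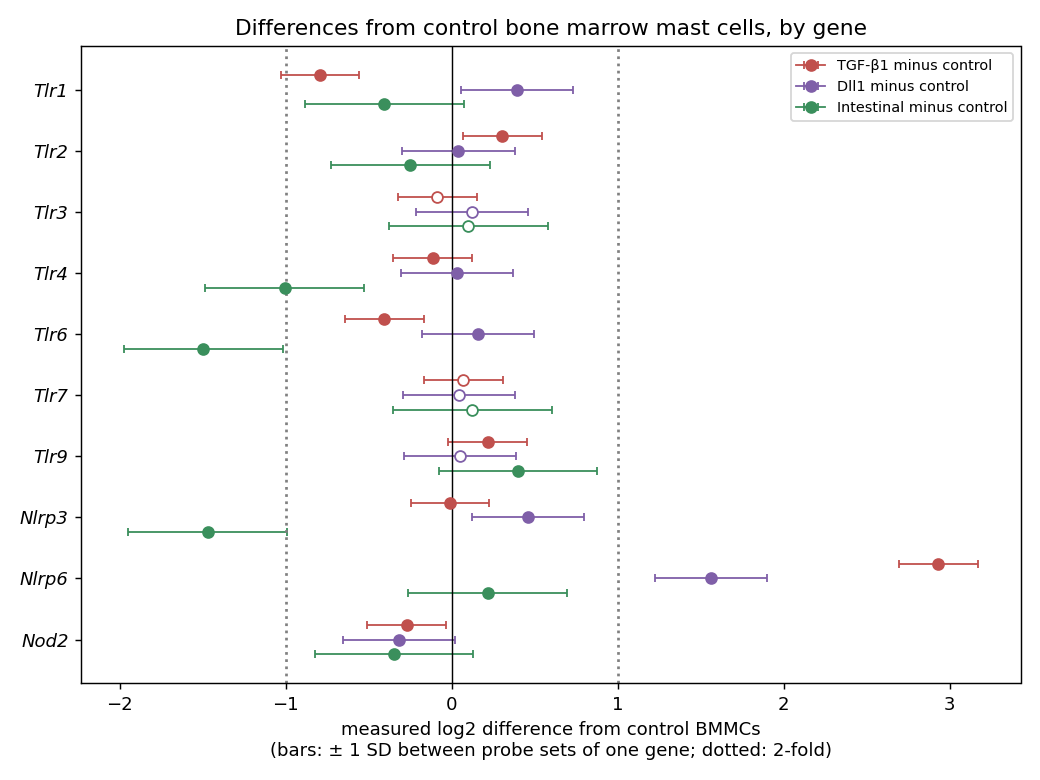
Measured log2 difference from control BMMCs (horizontal axis) for each gene on the TGF-β1, Dll1 and intestinal arrays; bars are ± 1 SD between probe sets of one gene, dotted lines mark 2-fold, and open points are genes below the limit on both arrays. Nlrp6 lies at 2.93 with TGF-β1 and 1.56 with Dll1, and Tlr6 (-1.5) and Nlrp3 (-1.47) lie past 2-fold on the intestinal array alone; Tlr4 (-1.0) sits on the line but its intestinal value is under the limit.

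Across the 10 genes the median measured difference from control BMMCs was -0.05 with TGF-β1, 0.09 with Dll1 and -0.30 in intestinal cells. Over all genes tested it was -0.03, 0.00 and -0.00. The sets are unlike, as the 10 include genes below the limit on both arrays (Tlr3, Tlr7 and, with Dll1, Tlr9). In intestinal cells Tlr3, Tlr7, Tlr9 and Nlrp6 were above 0 and the other 6 genes below, with Tlr3 and Tlr7 under the limit on both arrays.

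The genes whose 4-array profile was most like those of the called genes were found by Euclidean distance between centred log2 values, among 1898 genes that spanned at least 1 log2 unit. With 4 arrays such likeness is a description. For Nlrp6 they were Ddah1, a hydrolase of methylated arginines (distance 0.64), Arfgef3 (1.10) and the lysophospholipid transporter Mfsd2a (1.17). Ddah1 read 7.29 with TGF-β1, 5.97 with Dll1 and under the limit in intestinal cells (4.95) and control BMMCs (5.00). For Nlrp3 they were Slfn2 (0.21), the signalling adaptor Hcst (DAP10; 0.30) and the sphingomyelin synthase Sgms1 (0.32). For Tlr6 they were Wdr19 (0.12), Abhd4 (0.15) and Osbpl5 (0.15). The distances for Nlrp6 were larger than those for Nlrp3 and Tlr6. Profiles were not scaled, and Nlrp6 had the widest range (2.93, against 1.93 for Nlrp3 and 1.66 for Tlr6). Distances of the 3 genes therefore cannot rank how alike their nearest genes are.

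**Figure D3:**
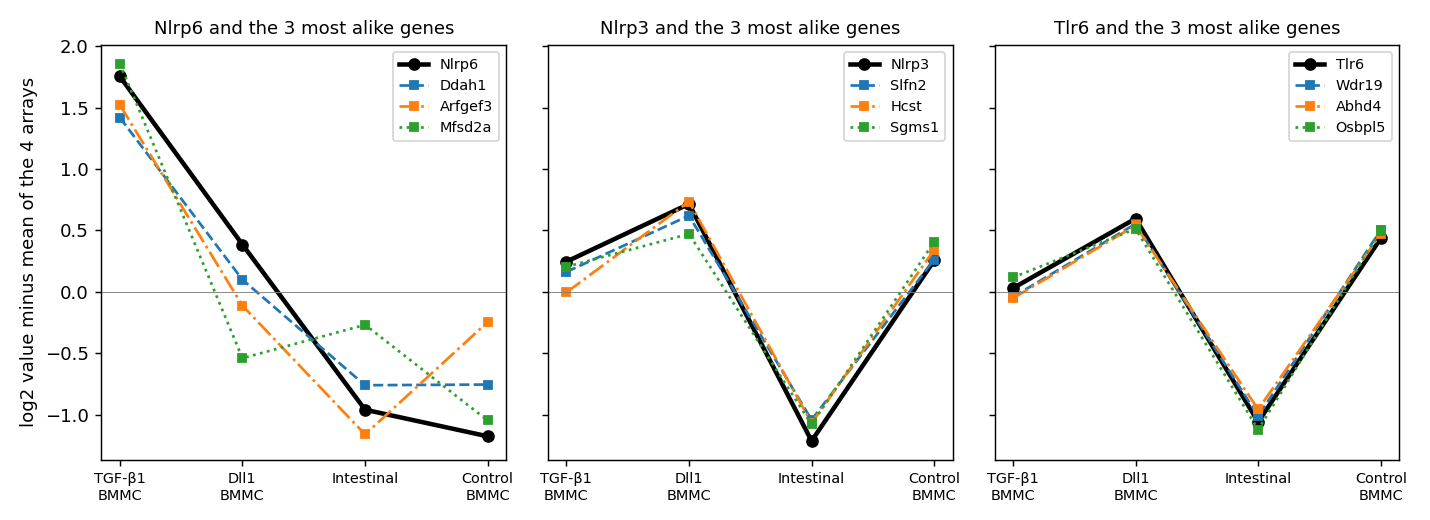
Log2 value minus the gene's mean over the 4 arrays (vertical axis; values under the limit raised to it) for Nlrp6, Nlrp3 and Tlr6 (black) and the 3 genes nearest to each (coloured). The nearest genes to Nlrp3 (distances 0.21 to 0.32) and Tlr6 (0.12 to 0.15) run close to them with a low intestinal point. Those of Nlrp6 lie at larger distances (0.64 to 1.17), on a profile of wider range.

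The partners of these sensors were described with lists of pathway genes. Of 13 co-receptor and trafficking genes and 10 NOD pathway genes, none was called against control on any array. Unc93b1 was 1.997-fold higher with Dll1 than in control BMMCs, just short of a call. Of 17 adaptors and kinases, none was called with TGF-β1 or Dll1, and Ikbke, an IκB kinase relative, was 2.06-fold lower in intestinal cells. The shares called over all genes tested were 1.4% with TGF-β1, 3.42% with Dll1 and 11.2% in intestinal cells. Myd88 read 8.80 with TGF-β1, 9.22 with Dll1, 8.99 in intestinal cells and 8.80 in control BMMCs, and Ticam1 read 6.41, 6.04, 6.47 and 6.48. The shared adaptors thus stayed within 0.43 of control on all arrays. Irak2, a kinase downstream of Myd88, read 6.98, 8.22, 7.31 and 7.93, and was 2.36-fold higher with Dll1 than with TGF-β1. The other 5 Toll-like receptors on the arrays (Tlr5, Tlr8, Tlr11, Tlr12 and Tlr13) read between 4.34 and 5.39, with no call.

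Inflammasome genes held one that was higher on all 3 arrays. Il1b, the cytokine interleukin-1β, read 7.24 with TGF-β1, 8.03 with Dll1, 8.87 in intestinal cells and 6.18 in control BMMCs. It was 2.09-fold, 3.61-fold and 6.46-fold higher than in control BMMCs in that order, which is not the order of Nlrp6. The part of other cell types in the Il1b values was not tested. Il18, the other cytokine that inflammasomes mature, was below the limit on all 4 arrays, at 4.36, 4.56, 4.35 and 4.34. Pycard (7.89, 7.91, 7.45 and 8.08), Casp1 (8.37, 7.56, 7.58 and 8.27) and the pore-forming protein Gsdmd (6.65, 6.61, 7.0 and 7.21) were above it everywhere and were not called.

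Nek7, a kinase that binds Nlrp3 and is needed for its activation, read 10.02 with TGF-β1, 10.52 with Dll1, 8.23 in intestinal cells and 10.40 in control BMMCs. It was 4.51-fold lower in intestinal cells than in control BMMCs, so the intestinal array was the low one for Nek7 as for Nlrp3. Il1a (at least 3.12-fold) and the receptor antagonist Il1rn (3.01-fold) were higher in intestinal cells. Pstpip1, a pyrin-binding protein, was 2.07-fold lower with TGF-β1. In all, 1 of 16 inflammasome genes was higher and 1 lower with TGF-β1, 1 higher and 0 lower with Dll1, and 3 higher and 1 lower in intestinal cells, with median differences of -0.15, 0.05 and -0.03. Over all genes tested, 0.508% were higher and 0.89% lower with TGF-β1, 1.64% and 1.78% with Dll1, and 4.47% and 6.74% in intestinal cells.

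Among 15 other NOD-like receptor genes, Naip2 and Naip5, which sense bacterial proteins, had their low value on the intestinal array. Naip2 read 6.82 with TGF-β1, 6.49 with Dll1, 5.05 in intestinal cells (below the limit) and 7.53 in control BMMCs, and was at least 5.36-fold lower in intestinal cells and 2.06-fold lower with Dll1. Naip5 was 3.12-fold lower in intestinal cells (5.42 against 7.06). Naip genes are close copies that can share probes, and Nlrc4, the receptor they act with, was below the limit on all 4 arrays (4.59 to 4.71). Nlrc3, a NOD-like receptor that dampens innate signalling, went the other way, at 7.40 with TGF-β1, 6.60 with Dll1, 8.16 in intestinal cells and 6.29 in control BMMCs, or 2.16-fold higher with TGF-β1 and 3.67-fold higher in intestinal cells. Of 12 nucleic acid sensors, Ifih1 (MDA5) was 3.45-fold higher in intestinal cells, and of 8 C-type lectin sensors, Clec7a (Dectin-1) was 5.15-fold higher there. Each was the only call of its list against control. In intestinal cells 1 of the 15 other NOD-like receptor genes was higher and 2 lower. Over all genes tested, the shares there were 4.47% higher and 6.74% lower. They were 0.508% higher with TGF-β1 and 1.78% lower with Dll1. The part of other cell types in these values was not tested.

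For inhibitors and NF-κB factors, as for all genes, the intestinal array had the most calls against control (11.2% of all genes, against 1.4% with TGF-β1 and 3.42% with Dll1). Of 18 inhibitors of signalling, 1 was higher with TGF-β1 (Bcl3, 2.02-fold), 2 were higher with Dll1, and 5 were higher and 2 lower in intestinal cells. Tnfaip3 (A20), an enzyme that edits ubiquitin to end NF-κB signalling, read 5.49 with TGF-β1, 7.37 with Dll1, 9.87 in intestinal cells and 6.03 in control BMMCs. It was 2.53-fold higher with Dll1 and 14.3-fold higher in intestinal cells. Nfkbiz was 2.99-fold higher with Dll1 and 14.2-fold higher in intestinal cells, and Nfkbia (IκBα; 9.87-fold), Atf3 (13.6-fold) and Pik3ap1 (BCAP; 4.24-fold) were higher in intestinal cells. Lower there were Socs1 (4.95-fold), a suppressor of cytokine signalling, and Irak3 (IRAK-M; 2.5-fold), a kinase relative that restrains Toll-like receptor signalling. Of 8 NF-κB and interferon regulatory factor genes, Rel (3.46-fold), Irf7 (2.15-fold) and Irf1 (2.07-fold) were higher in intestinal cells, and none was called with TGF-β1 or Dll1.

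**Figure D4:**
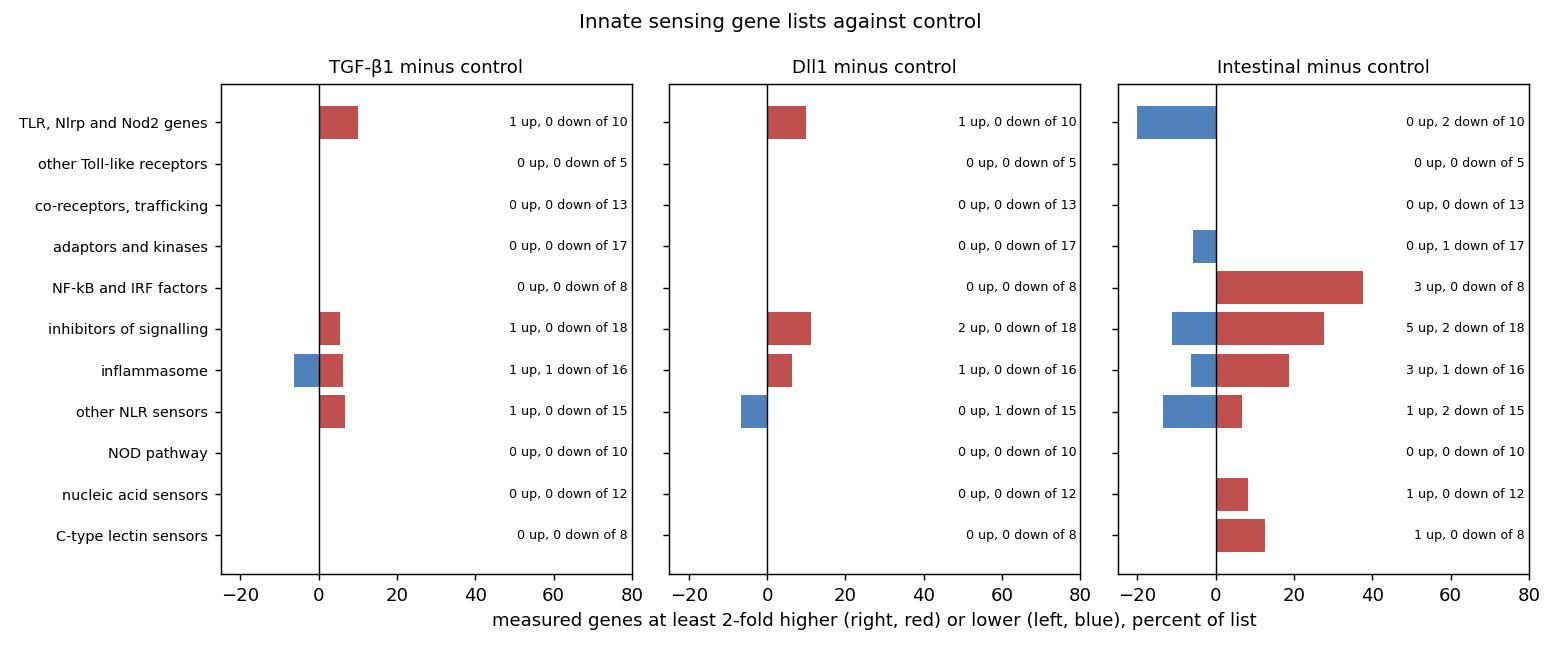
Percent of each gene list at least 2-fold higher (red, right) or lower (blue, left) than in control BMMCs on the TGF-β1, Dll1 and intestinal arrays, with the counts printed. Inhibitors (5 higher and 2 lower of 18) and NF-κB and IRF factors (3 higher of 8) have most of their calls on the intestinal array, where 11.2% of all genes are called against 1.4% with TGF-β1 and 3.42% with Dll1; co-receptors and the NOD pathway show no call.

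Other measures moved with the intestinal values. Of 15 immediate early genes, induced rapidly when cells are handled, 14 were higher in intestinal cells, 11 with Dll1 and 0 with TGF-β1. Of all genes tested, 4.47%, 1.64% and 0.508% were higher in that order, against most of the immediate early genes in intestinal cells and with Dll1. Their median differences from control were 4.32 in intestinal cells, 2.40 with Dll1 and -0.08 with TGF-β1. Atf3 belongs to both the immediate early list and the inhibitors. The inhibitors Tnfaip3 and Nfkbiz were likewise called higher in intestinal cells and with Dll1, and not with TGF-β1. The part of handling in the calls of inhibitors and NF-κB factors was not tested. Macrophage and dendritic cell markers were above the limit for 10 of 16 genes with TGF-β1, 10 with Dll1, 13 in intestinal cells and 7 in control BMMCs, with median levels of 5.24, 5.26, 5.95 and 5.07. In intestinal cells 4 of the 16 were called higher, against 4.47% of all genes tested. They were Itgax (at least 67.3-fold), C1qb (at least 4.26-fold), C1qa (3.62-fold) and Csf1r (at least 2.70-fold). T and innate lymphoid markers (9 of 11 above the limit) and B and plasma cell markers (6 of 8) were also most often above it on the intestinal array. The 10 mast cell markers were uneven there, with a median difference of -0.81 from control. The proteases Tpsb2 (6.21 in intestinal cells against 11.55 in control BMMCs) and Cma1 (7.16 against 12.12) and the amine transporter Slc18a2 (9.83 against 11.60) were called lower. Kit (11.75 against 12.65), Cpa3 (12.76 against 13.06) and Hdc (6.90 against 6.62) were among the 7 not called. In a bulk sample, fewer mast cells and less RNA of a given gene per mast cell cannot be told apart. The intestinal cells were also mucosal mast cells from tissue, and the control cells a culture. The part of mast cell type, of other cells or of handling in the lower Tlr6 and Nlrp3 was not tested.

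**Figure D5:**
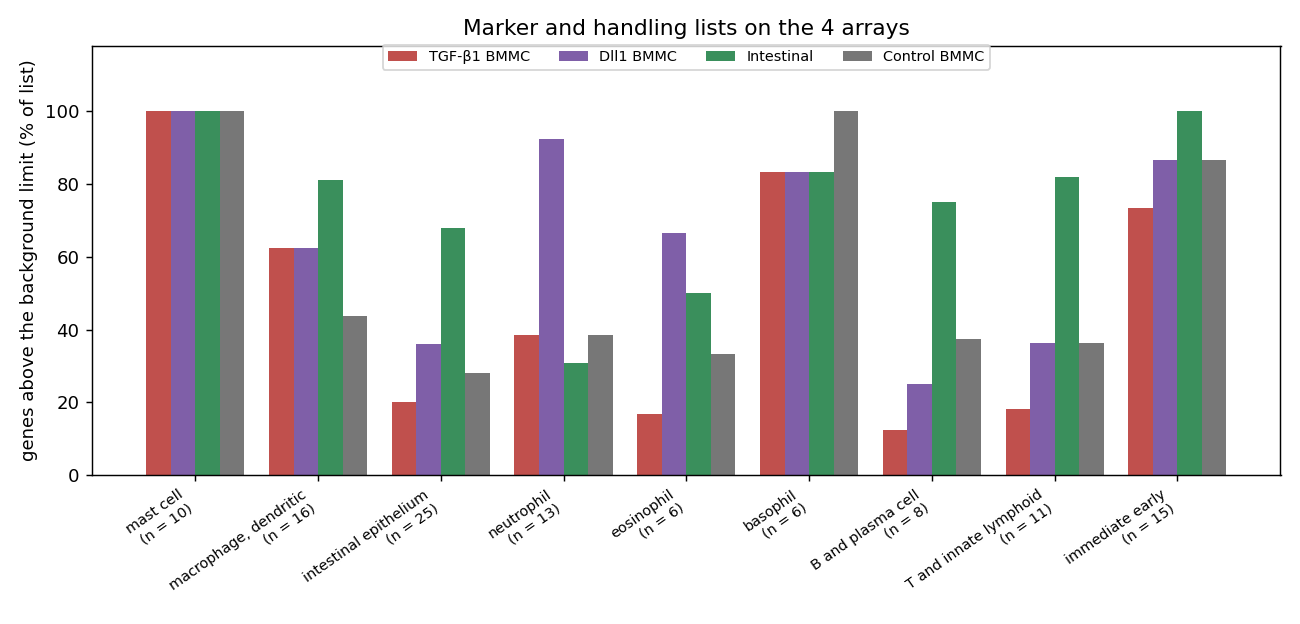
Percent of the genes in each marker list (horizontal axis, with the number measured) above the background limit on the TGF-β1, Dll1, intestinal and control arrays. Mast cell markers are at 100% on all 4 arrays, neutrophil markers are most often above the limit on the Dll1 array (12 of 13), and epithelial, macrophage, B cell and T cell markers on the intestinal array.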

How the data were processed

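RNA from 4 mouse mast cell preparations was amplified from 2 ng by a whole-transcript kit suited to low input, per the labels' protocols, and hybridised to 1 array each. The authors deposited log2 values of 33793 probe sets; how they were summarised and normalized is not given in the sources used here. Values ran from 4.13 to 13.14 with array medians of 4.98 to 5.06, and were used with no further normalization. Precision is limited by the number of arrays. Values near the lowest of an array can understate differences of dim genes.

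The platform annotation gave 1 symbol for 23521 probe sets, several for 1814 and none listed for 8458. Only single-symbol probe sets were used, and a gene with several took the brightest by mean. The size rule (2-fold above a limit at the 95th percentile) was run over 22180 genes in 6 comparisons with Python 3.11.15, pandas 2.3.3 and numpy 2.4.6 and tested on simulated data. Mb21d1 and Tmem173 were matched by gene ID to Cgas and Sting1. Genes of the lists with no single-symbol probe set, such as Irak4, Traf3 and Ripk2, were not analysed here. All 10 sensor genes are named, with up to 6 called members of each list by largest difference from control, a set of partner genes, and the 3 nearest genes of each gene called against control. Some marker genes were named after their values were seen. The 10 genes and the lists were chosen with earlier results of these data known. Promoter sequences came from RefSeq (GRCm38.p6) and covered 8 of the 10 genes in 11 windows. The alternatives were other normalizations, limits, probe set rules, an offset and other fold thresholds.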

Additional observations from a re-analysis of the deposited data

How the results depend on the processing

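With 1 array per group, no replicate could be left out. No paired analysis was possible because the groups share a single replicate number. No called difference of the 10 genes lost its call or changed sign with array medians subtracted, quantile normalization or a limit at the 99th percentile. The same held with the 90th percentile, no limit, the mean of probe sets or an offset of 16 subtracted. These latter settings could not remove a call. Each called gene (Tlr6, Nlrp3 and Nlrp6) has 1 probe set and lay above the main limit on all 4 arrays, and an offset only enlarges differences. Nlrp6 kept its calls with TGF-β1 and Dll1 in all of these settings, by a small margin at the 99th percentile. There its Dll1 minus control difference was 1.05 in place of 1.56, just past 2-fold. Its intestinal minus Dll1 difference was -1.07 in place of -1.35. Its control and intestinal values were raised to that higher limit. Of the alternative differences of the 10 genes, 421 kept their side of the threshold and 11, all of Tlr1 or Tlr4, gained a call. The number of the 10 genes called for Dll1 minus TGF-β1 was 2 (Tlr1 joining Nlrp6) in place of 1 with the 90th percentile, with no limit, with the offset and at 1.5-fold. For intestinal minus control it was 3 in place of 2 (Tlr4 added) with the 90th percentile, with no limit, with the offset and at 1.5-fold. For intestinal minus TGF-β1 it was 4 in place of 3 (Tlr4 added) with the offset and at 1.5-fold. For intestinal minus Dll1 it was 5 in place of 3 with the offset and at 1.5-fold (Tlr1 and Tlr4 added). It was 4 there (Tlr4 added) with the 90th percentile and with no limit. At 1.5-fold it was 2 for TGF-β1 minus control, with Tlr1 added. At 3-fold it was 0 for Dll1 against control, for Dll1 against TGF-β1 and for intestinal cells against control. It was 1 (Nlrp6) for intestinal minus TGF-β1 and 2 (Tlr6 and Nlrp3) for intestinal minus Dll1. The changes at 1.5-fold and 3-fold follow from the threshold itself. Those with the 90th percentile or no limit follow from Tlr1 on the TGF-β1 array and Tlr4 on the intestinal array. Both values lie under the main limit, and raising them to it shrank their differences. The offset enlarges every difference.

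Over all genes, those called against control were 168 with TGF-β1, 436 with Dll1 and 1426 in intestinal cells. Between the others they were 517 for Dll1 over TGF-β1, 1081 for intestinal over TGF-β1 and 1003 for intestinal over Dll1. In that order they were 785, 1581, 3204, 1707, 2584 and 2678 at 1.5-fold, and 46, 127, 574, 157, 473 and 368 at 3-fold. With the offset they were 294, 753 and 833 for TGF-β1 minus control, Dll1 minus control and Dll1 minus TGF-β1. With array medians subtracted, 175 genes were higher and 316 lower for Dll1 minus control, against 209 and 227. Of 122 pathway genes, 4, 4, 20, 5, 19 and 16 were called in that order. These became 10, 14, 41, 18, 37 and 31 at 1.5-fold and 0, 1, 16, 1, 14 and 9 at 3-fold. Quantile normalization gave 2 for TGF-β1 over control, and the offset gave 7 for Dll1 over control and 8 for Dll1 over TGF-β1. Values near the background limit cannot show small differences, which touches Tlr1, Tlr2, Tlr4, Tlr9 and Nod2.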
